A study of Mus musculus with 2 samples.

Results

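The miRNAs described here are those of the clusters of miR-193 with miR-365 and of the hypoxia miRNA miR-210. Members were chosen by name, as the array entries mmu-miR-193a-3p, mmu-miR-193a-5p, mmu-miR-193b-3p, mmu-miR-365-3p, mmu-miR-210-3p and mmu-miR-210-5p, which makes 6 of the 1881 mouse miRNAs on the array. They cover the miR-193a-3p and miR-210-3p that the study followed further, the opposite arm of each, the paralog miR-193b and the cluster mate miR-365. The 6 members had 14 probes and 180 spots on each array, of 4415 probes and 56430 miRNA spots in all.

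RNA came from exosomes, small membrane vesicles that cells shed into body fluids, isolated from the serum of mice with subcutaneous Lewis lung carcinoma (LLC) tumours. The labels name serum and the study's text names plasma. The LLC group received 1000000 luciferase-expressing LLC cells, a mouse lung cancer line, and the MSC+LLC group the same cells mixed with murine bone marrow-derived mesenchymal stem cells (BMSCs), stromal cells bought as a culture from C57BL/6 mice. Hosts were 6-week-old female C57BL/6 mice, so tumour, stroma and host share a genome and the arrays cannot say which of them shed a given miRNA. Serum was taken at a mean tumour volume of 200 mm3. Each group had 1 array, both on the same slide and scan, so position and group cannot be told apart. The number of mice and of BMSCs behind each was not given in the sources used here. With 1 array per group no test was possible and no p-value is given, and every difference is one between these arrays. In such bulk material, fewer vesicles of a kind and less of a miRNA per vesicle cannot be told apart.

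A miRNA gene is transcribed into a hairpin whose stem is cut out as a short duplex. The strand from either side of the stem, named 5p or 3p, can be loaded into an Argonaute protein, and the other strand is usually degraded. The loaded strand finds its target mRNAs mainly through its seed, bases 2 to 8. Transcription of miR-210 is raised by hypoxia-inducible factors in most cell types, and its 3p arm represses mitochondrial proteins such as the iron-sulfur cluster scaffold. The miR-193a and miR-193b genes each lie beside a miR-365 gene, and the pair of miR-193b with miR-365 has been studied in brown fat development. miR-193a-3p has been described as a growth suppressor in several tumour types. The study also cites work in which miR-193a-3p raised proliferation of renal cell carcinoma cells. It reports that this miRNA promoted invasion of lung cancer cells.

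The mature sequences of the members, from RefSeq, are shown with the seed in capitals, because the seed groups them and the letters after it are what the array has to tell apart.
mmu-miR-193a-3p: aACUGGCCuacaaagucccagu
mmu-miR-193b-3p: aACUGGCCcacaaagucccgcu
mmu-miR-365-3p: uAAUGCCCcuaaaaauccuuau
mmu-miR-210-3p: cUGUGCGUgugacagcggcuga
mmu-miR-193a-5p: uGGGUCUUugcgggcaagauga
mmu-miR-210-5p: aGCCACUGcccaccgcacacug

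The 3p arms of miR-193a and miR-193b shared their seed and 19 of 22 bases. Counted from the 5′ end of miR-193a-3p, with its base first, the differences were U9C, A20G and G21C. Of the 1608 array miRNAs whose sequence was in the table, no other one had the seed of these arms, and none shared the seed of miR-365-3p, of miR-210-3p or of either 5p member. The 5p arms of the same paralogs differed more, at 5 of 22 bases (U1C, U5G, C6U, C11A and A16G), and 2 of these lay within the seed. The GC content of the members ran from 31.8% in miR-365-3p to 68.2% in miR-210-5p, with 50% in miR-193a-3p, 59.1% in miR-193b-3p and 63.6% in miR-210-3p.

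The hairpins of miR-193a, miR-193b and miR-210 are printed with both mature arms in capitals, the 5p arm first, because both arms of each were on the array.
Mir193a: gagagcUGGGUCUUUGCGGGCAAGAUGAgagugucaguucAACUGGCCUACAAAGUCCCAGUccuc
Mir193b: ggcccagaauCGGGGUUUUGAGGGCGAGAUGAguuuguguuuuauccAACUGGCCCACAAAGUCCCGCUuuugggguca
Mir210: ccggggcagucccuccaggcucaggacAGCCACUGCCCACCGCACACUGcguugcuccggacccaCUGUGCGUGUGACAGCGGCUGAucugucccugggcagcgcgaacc

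In the RefSeq table (build GRCm38.p6), Mir193a lay at chr11:79711969-79712034 on the plus strand, 14365 bases before Mir365-2 and with no other gene over it. Mir193b lay at chr16:13449523-13449601 on the plus strand, 4238 bases before Mir365-1, and the long non-coding genes Gm32817 and Gm53058 covered both. Mir210 lay at chr7:141221384-141221493 on the minus strand, next to Rassf7 and covered by no other gene. The array design itself was built on mm9, and no coordinate was converted. Mir365-1 and Mir365-2 both encode the mature mmu-miR-365-3p, with identical letters, so its probes read the sum of the 2 clusters.

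All 3p members were detected on the LLC array and all but miR-365-3p on the MSC+LLC array, and no 5p member was detected on either. Detection of a probe asked that the scanner software mark over 50% of its spots, outliers left out, as well above background, and detection of a miRNA asked this of at least 1 probe. By this rule 4 of the 6 members were detected on the LLC array, against 26.7% of all 1881 miRNAs. On the MSC+LLC array 3 of the 6 were, against 13.7% of all miRNAs. Members were chosen with earlier results of these data known, so these shares are no test of the members. The MSC+LLC array was the dimmer, by 3.53 on the log2 scale at the 75th percentile of probes that both arrays detected, and 226 of the 240 miRNAs measured on both were dimmer there before scaling.

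**Figure D1:**
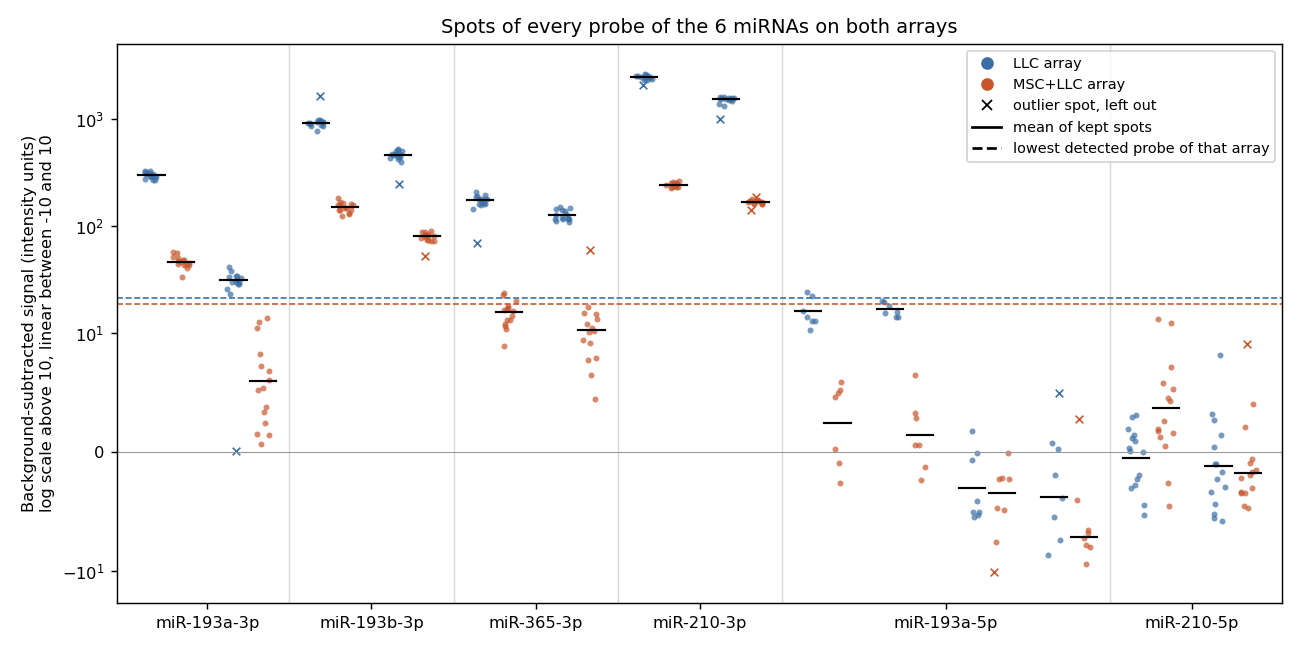
Signal of every spot of the 14 probes of the 6 miRNAs, in background-subtracted intensity units on an axis that is linear between -10 and 10 and logarithmic beyond, with the LLC array in blue and the MSC+LLC array in orange. Crosses are outlier spots, bars are means of the kept spots, and dashed lines mark the lowest detected probe of each array (20.9 for LLC and 18.8 for MSC+LLC); the kept spots of the 5p probes and the kept MSC+LLC spots of miR-365-3p lie around or under these lines, and 1 outlier MSC+LLC spot of miR-365-3p lies above them at 59.3.

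The brighter probe of miR-193a-3p had spots from 269.7 to 328 intensity units on the LLC array (median 294, 15 spots) and from 33.5 to 56.4 on the MSC+LLC array (median 46.2, 15 spots). The 2 ranges did not overlap, and all spots were well above background on both arrays. The means were 298 ± 18.8 (SD, n = 15 spots) and 46.3 ± 5.77 (SD, n = 15 spots), a probe 6.43-fold dimmer on the MSC+LLC array before scaling. The other probe of miR-193a-3p had an LLC mean of 31.4 ± 4.64 (SD, n = 14 spots) and an MSC+LLC mean of 5.96 ± 4.09 (SD, n = 15 spots), and in the latter none of its spots was well above background. It thus gave only a bound, at least 1.67-fold dimmer before scaling, and the ratio of miR-193a-3p rests on 1 probe.

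Both probes of miR-193b-3p, the paralog, were detected on both arrays. The brighter one had LLC spots from 772 to 979.6 (median 918.5, mean 909 ± 56.6, SD over 14 spots) and MSC+LLC spots from 123 to 182 (median 147, mean 149.6 ± 15.6, SD over 15 spots). The dimmer one had LLC spots from 397 to 522 (mean 462 ± 35.7, SD over 14 spots) and MSC+LLC spots from 71.7 to 89.6 (mean 79.8 ± 5.82, SD over 14 spots). In neither probe did the spots of the arrays overlap. Before scaling the probes were 6.08-fold and 5.79-fold dimmer on the MSC+LLC array, close to the 6.43-fold of miR-193a-3p.

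For miR-210-3p the brighter probe had LLC spots from 2314 to 2648 (median 2457) and MSC+LLC spots from 225 to 261 (median 241). The dimmer probe had LLC spots from 1329 to 1615 (median 1545) and MSC+LLC spots from 159 to 179 (median 169). Every kept spot of the MSC+LLC array again lay below every LLC spot. The spots of miR-210-3p varied least among the detected 3p members, with coefficients of variation from 3.40% to 5.29%, against 6.22% to 12.5% for the probes of miR-193a-3p and miR-193b-3p that were detected on both arrays. The probes of miR-210-3p were 10.1-fold and 9.03-fold dimmer on the MSC+LLC array before scaling, near the 10.4-fold of the median miRNA measured on both arrays.

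miR-365-3p, the shared product of the clusters, stood well above background in every kept LLC spot and in few MSC+LLC spots. Its brighter probe had LLC spots from 144 to 207 (mean 174 ± 16.8, SD over 14 spots), and its dimmer probe from 108 to 151 (mean 126 ± 14.1, SD over 15 spots). The MSC+LLC spots of the brighter probe ran from 8.87 to 23.4 (mean 15.6 ± 4.18, SD over 15 spots), of which 3 were well above background. The dimmer probe had spots from 4.41 to 17.4 there (median 10.3, SD 3.68 over 14 spots), and none was well above background. The bounds were at least 9.27-fold and at least 6.70-fold dimmer before scaling. After scaling the LLC signals of both probes lay under the detection limit of the MSC+LLC array, so no fold could be given. The same spots were not all at the level of empty probes: 11 of 15 and 4 of 14 exceeded 12.5 intensity units, the 99th percentile of the 965 negative control spots on the MSC+LLC array.

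**Figure D2:**
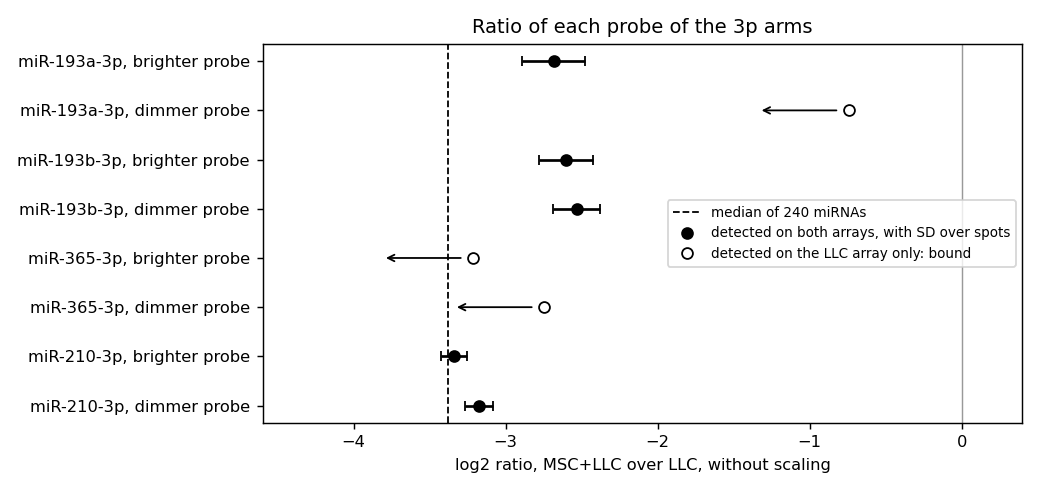
Log2 ratio of MSC+LLC over LLC without scaling for each probe of the 4 3p members, with bars for the SD over spots, and open circles with arrows for bounds where the probe was detected on the LLC array only. The 3 probes of miR-193a-3p and miR-193b-3p measured on both arrays lie between -2.69 and -2.53, to the right of the dashed median of -3.38, and those of miR-210-3p lie at -3.34 and -3.18.

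The comparison asked how far the members differed between tumours with and without BMSCs once the arrays were brought to one scale. Scaling to the 75th percentile of probes that both arrays detected moved every log2 ratio up by 3.53. For miR-193b-3p the log2 ratio (MSC+LLC over LLC) was then 0.96 (1.94-fold higher, probes at 0.92 and 0.99, SD over spots 0.17). It was 0.84 for miR-193a-3p (SD over spots 0.21, 1 probe) and 0.27 for miR-210-3p (probes at 0.19 and 0.35, SD over spots 0.090). None of the 3 passed 2-fold under this scaling. A ratio needed detection on both arrays, and the LLC array detected 502 miRNAs against 258 on the dimmer MSC+LLC array. Weak miRNAs that were lower on the MSC+LLC array thus tended to have no ratio. The part of this in the counts, median and ranks that follow was not tested. Over all 240 miRNAs with a ratio, 27.1% (65) passed 2-fold upward and 11.2% (27) downward, and the median was 0.15. Relative to that median the members stood higher by 0.81, 0.69 and 0.12 on the log2 scale. For miR-210-3p this side of the median depended on the processing. Under this scaling 55.0% of the 240 had a lower ratio, and under normexp 33.8% did, which put miR-210-3p below the median. Normexp is a background correction, run here with an offset of 50 added to every spot. The part of that offset was not tested. Among the 240, 168 had a lower ratio than miR-193b-3p, or 70.0%.

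These signs were set by the scaling. Under the 75th percentile of all probes the log2 ratios were -0.26 for miR-193b-3p, -0.37 for miR-193a-3p and -0.95 for miR-210-3p, and 27 miRNAs were at least 2-fold higher against 127 lower. That percentile counts undetected probes too. Only 11.5% of MSC+LLC spots and 23.3% of LLC spots were well above background, so on the MSC+LLC array it falls among probes near background. With the labelling spike-ins, RNAs added in known amount before labelling, the log2 ratios were -1.25, -1.37 and -1.94, and without scaling -2.57, -2.69 and -3.26, with 8 miRNAs higher and 217 lower. A constant per array cannot change the order of the members, so these scalings say nothing about it. The settings that could change it were other summaries of spots or probes, the summed signal, quantile normalization and normexp. In each of these miR-210-3p had the lowest ratio. miR-193b-3p stood above miR-193a-3p in all of them except normexp, which put miR-193a-3p 0.31 higher.

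**Figure D3:**
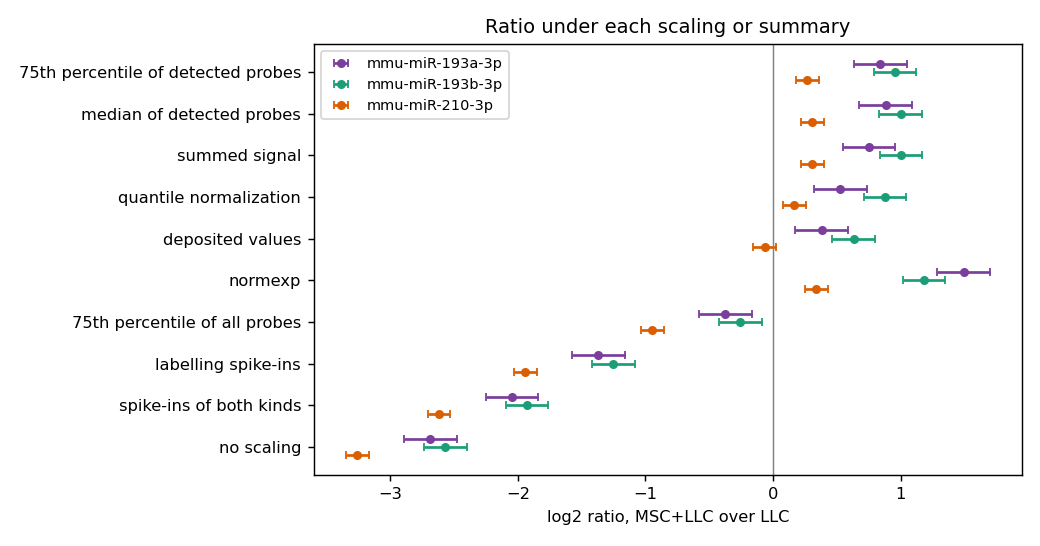
Log2 ratio of MSC+LLC over LLC of the 3 members measured on both arrays under 10 ways of scaling or summarising, with bars for the SD over spots under the 75th percentile scaling in every line. The 75th percentile of all probes, both spike-in scalings and no scaling put all 3 below 0, and the deposited values put miR-210-3p at -0.064. miR-210-3p is the lowest in each line, although lines that differ only by a constant per array could not change the order.

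**Figure D4:**
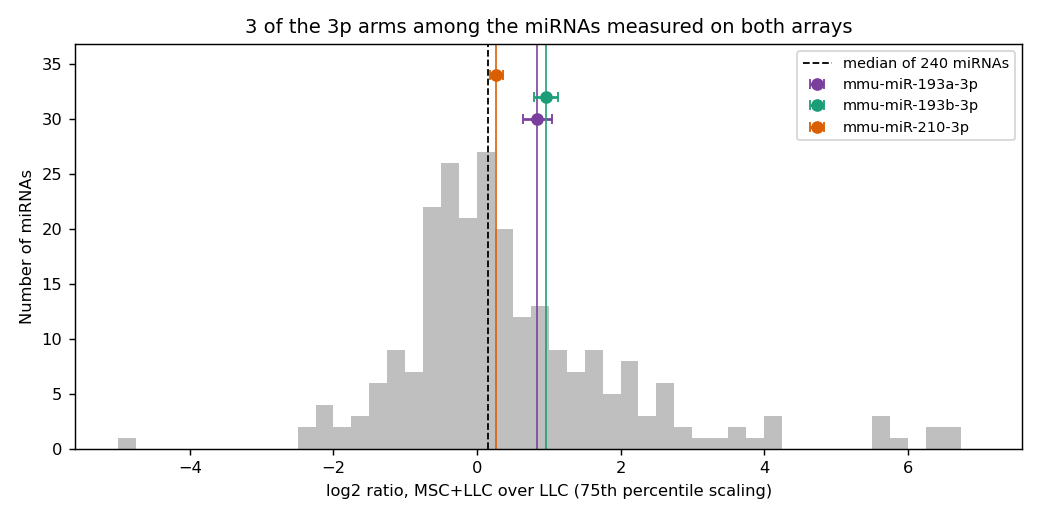
Histogram of the log2 ratio of MSC+LLC over LLC, scaled by the 75th percentile, over the 240 miRNAs measured on both arrays (bins of 0.25), with the 3 members as lines and points with the SD over spots. miR-210-3p at 0.27 lies next to the median of 0.15, and miR-193a-3p (0.84) and miR-193b-3p (0.96) lie to its right.

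Whether the paralogs differed in ratio depended on the processing. The log2 ratio of miR-193b-3p exceeded that of miR-193a-3p by 0.12, less than the combined SD over spots of 0.27. It was 0.25 in the summed signal, and so also in the deposited values, which on the log2 scale are that signal minus a constant per array. After quantile normalization it was 0.35, and under normexp with its offset of 50 it was -0.31. The last 2 are larger in size than that SD and opposite in sign. The MSC+LLC mean of the brighter miR-193a-3p probe was 46.3, below that offset, and the part of the offset in the reversal was not tested. Over the 65 pairs of miRNAs that share a seed and were measured on both arrays, the median absolute difference was 0.54 (quartiles 0.24 and 0.84), and under the 75th percentile scaling 5 of the 65 pairs differed by less than the miR-193 pair. Over all 19306 pairs of the 197 measured miRNAs with a sequence the median was 1.04, and 6.49% differed by less. Probe sequences were not used here, and whether a probe for one of these paralogs also binds the other, which differs at 3 bases, was not tested.

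miR-210-3p differed from both paralogs by more than its spots varied. Its log2 ratio was 0.69 below that of miR-193b-3p, a 1.61-fold difference with a combined SD over spots of 0.19. It was 0.57 below that of miR-193a-3p, 1.49-fold, with a combined SD of 0.23. These differences are not changed by any constant scaling. They compare unequal change between the arrays, since levels of different probes cannot be set against each other, and the spread over spots holds nothing of the spread between mice.

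Among 146 miRNAs with at least 2 probes detected on both arrays, those with the nearest ratios to miR-210-3p were miR-23a-3p (0.28) and miR-1224-5p (0.28). The nearest to miR-193b-3p were miR-3473f (0.96) and miR-3095-3p (0.97). The nearest to miR-193a-3p were the liver miRNA miR-122-5p (0.78) and miR-1249-3p (0.77). Likeness here is closeness of a single ratio between 2 arrays.

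The labels name lung, and for the MSC+LLC group also bone marrow, as the tissue of material that was serum, and miRNAs of blood and tissues were therefore read beside the members. Of 11 markers 9 were measured on both arrays, with scaled log2 ratios from -2.25 to 1.66. Markers of one cell type did not always read alike. The leukocyte miR-142a-3p was at -2.25 and miR-223-3p at 0.14, and the muscle miR-133a-3p was at 1.28 and miR-1a-3p at 0.15. The red cell miR-486a-5p was at 1.66 and miR-451a at 1.1, and the liver miR-122-5p was at 0.78. Of the stromal markers miR-199a-3p was at 0.57 and miR-214-3p at 0.82, and of the others only the LLC array detected miR-143-3p and neither array miR-145a-5p. The ratios of miR-193a-3p, miR-193b-3p and miR-210-3p all lay within the wide range of these markers, which sets none of the members apart. The part of the markers' sources in these ratios was not tested.

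For miR-193a, miR-193b and miR-210 the 3p arm was detected on both arrays and the 5p arm on neither. For miR-365 this held on the LLC array alone, since no arm of it was detected on the other. The LLC means of miR-210-5p were -0.54 ± 2.62 and -1.18 ± 3.85 (SD, 15 spots in each), and its MSC+LLC means were 3.66 ± 4.81 and -1.82 ± 2.43 (SD, 15 and 14 spots). These lie at the level of the negative controls, which read 2.09 ± 3.82 (SD, 986 spots) and 3.70 ± 3.43 (SD, 965 spots). The 4 probes of miR-193a-5p did not read alike. On the LLC array 2 of them had means of 16.1 ± 4.99 and 16.6 ± 2.51 (SD, 7 spots in each), and 13 of their 14 spots exceeded the 99th percentile of the negative controls, 11.4. The other 2 lay below 0, at -3.02 ± 2.87 (SD, 8 spots) and at -3.79 ± 3.65 (SD, 7 spots). On the MSC+LLC array all 4 lay between -7.13 and 2.45. One LLC spot of miR-193a-5p stood well above background, and the scanner software counted this miRNA as detected there.

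The remaining arms of these precursors, which are not members, were checked in the same way. None of miR-193b-5p, miR-365-1-5p and miR-365-2-5p was detected on either array. Some LLC spots still exceeded 11.4, the 99th percentile of the negative controls there. In the brighter probes these were 6, 8 and 4 of 15 kept spots, in that order. In the dimmer probes they were 2 of 14, 1 of 15 and 1 of 15. No kept MSC+LLC spot exceeded that array's percentile of 12.5. The 6 probes of these arms gave LLC means of 5.10 to 10.8 and MSC+LLC means of -2.66 to 1.2, all under the lowest detected probe of the array (20.9 and 18.8). Levels this low cannot be ordered, and an arm not well above background has only an upper bound.

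Precursors with 3p alone were common but not the most common kind. Of 723 precursors with both arms on the array, 321 had an arm detected on the LLC array. Of these 31.5% had the 3p arm alone, 55.8% the 5p arm alone and 12.8% both. On the MSC+LLC array 170 had an arm detected, of which 42.9% had 3p alone, 47.1% 5p alone and 10.0% both. The precursors of miR-193a, miR-193b and miR-210 had 3p alone on both arrays.

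**Figure D5:**
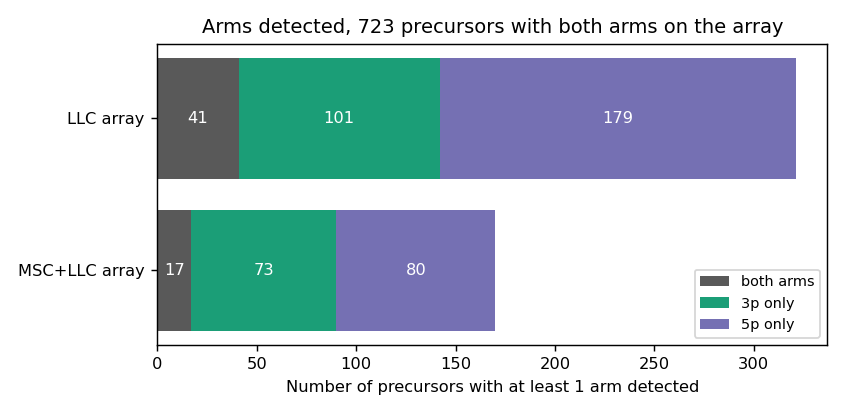
Number of precursors with both arms, the 3p arm only or the 5p arm only detected on each array, among 723 precursors whose 5p and 3p arms are both on the array. On the LLC array 101 had 3p only and 179 had 5p only, and on the MSC+LLC array 73 and 80.

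In the values that the authors deposited, the log2 difference of MSC+LLC minus LLC was 0.63 for miR-193b-3p, 0.38 for miR-193a-3p and -0.064 for miR-210-3p. For miR-365-3p it was -1.06, from values of -0.70 and -1.76, since the software counted it as detected on both arrays. Its MSC+LLC value rests on a summed signal of 3.30, from probes that the detection rule used here did not call detected on that array. For miR-193a-5p the difference was -1.80, from -5.0 (LLC) and -6.80 (MSC+LLC). The latter is the fill value of an undetected miRNA, a summed signal of 0.1. For miR-210-5p both values were fill values, -10.34 and -6.80, and their difference of 3.54 came from the constants subtracted per array. It is not a measured change, although it would read as 11.6-fold higher in the MSC+LLC group.

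Other miRNAs commonly listed as raised by low oxygen were set beside miR-210. The list held 21 entries including both arms of miR-210, all on the array, and 16 were measured on both arrays. Under the 75th percentile scaling 0 of the 16 were at least 2-fold higher, 2 were at least 2-fold lower and 14 lay within 2-fold. Both the 16 and the 240 hold only miRNAs that both arrays detected. Those under the detection limit of the dimmer MSC+LLC array are left out of both, and the part of this was not tested. Over all 240 measured miRNAs 27.1% were higher and 11.2% lower by this rule, and the 2 lower ones of 16 are near the latter share. Their median log2 ratio was -0.076, below the 0.15 of all 240 miRNAs, and -0.096 without miR-210. The highest was miR-125b-5p at 0.97 and the lowest miR-26b-5p at -2.15, with miR-103-3p at -1.50 the other miRNA lower by 2-fold. miR-210-3p, the best known of them, was the third highest of the 16 at 0.27, after miR-125b-5p and miR-23a-3p (0.28). Of the others, miR-155-5p, miR-181b-5p and miR-181c-5p were detected on the LLC array only, and miR-181a-5p on neither.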

How the data were processed

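Serum exosomal RNA (100 ng per sample) of 1 LLC and 1 MSC+LLC sample was hybridised to Agilent mouse miRNA arrays with 1 colour. Groups came from sample titles. Members and lists were chosen with earlier results of these data known. The scanner software was Agilent Feature Extraction, for which the file headers give version 11.5.1.1 and the submitters' processing notes another. The deposited intensity values were background-subtracted and spatially detrended, with no scaling between arrays. The deposited log2 values, made by the authors in GeneSpring GX, equalled log2 of the summed signal minus 7.02 (LLC) or 3.48 (MSC+LLC).

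Outlier spots were left out, spots of a probe were averaged on the linear scale, and log2 ratios of probes detected on both arrays were averaged per miRNA. The SD over spots of a ratio combines the SDs of log2 spot values of both arrays. For a bound, the brighter signal was set against what the dimmer array read for that probe or against its lowest detected probe, whichever was higher. Named miRNAs were the members, other arms of their precursors, miRNAs sharing a seed, the extremes of the hypoxia list, tissue markers and the 2 nearest ratios per member; miR-23a-3p, miR-103-3p and the list's entries not measured on both arrays were named after their values were seen. RefSeq sequences were matched by name for 1608 of 1881 miRNAs. The ratio function was tested on simulated arrays, after the error of the scale factor was taken out. The detection rule was not part of that test. Normexp (offset 50, on median pixel signals) came from limma 3.58.1 in R 4.3.3, and all else from Python 3.11.15 with pandas 2.3.3, numpy 2.4.6 and matplotlib 3.10.9. Alternatives were other scalings, background correction, probe summaries, detection rules and the deposited values. No spot was saturated, and 1 array per group limits the precision.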

Additional observations from a re-analysis of the deposited data

How the results depend on the processing

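No paired analysis was possible because a single array stands for a group. A ratio counts as moved when it shifts by more than its SD over spots. The labelling spike-ins were added after seeing the data. With the 75th percentile of all probes, the labelling spike-ins, the spike-ins of both kinds and no scaling, the log2 ratio was -0.37, -1.37, -2.05 and -2.69 for miR-193a-3p, -0.26, -1.25, -1.93 and -2.57 for miR-193b-3p, and -0.95, -1.94, -2.62 and -3.26 for miR-210-3p. These scalings move every ratio by 1 constant, which by construction turned the signs. Quantile normalization gave 0.53 for miR-193a-3p, 0.88 for miR-193b-3p and 0.17 for miR-210-3p. Normexp gave 1.5 for miR-193a-3p and 1.18 for miR-193b-3p, both past 2-fold. The summed signal put miR-193b-3p just past 2-fold, at 1.003, so whether a member passed 2-fold depended on the processing. The deposited values gave 0.38, 0.63 and -0.064. They are the summed signal with other constants per array, so they too differ from its ratios by 1 constant. The cause of the shifts under quantile normalization and normexp was not tested. The median of detected probes, summed signal, brightest probe, median of spots and outlier spots kept left all 3 within their SD over spots.

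The difference of miR-193b-3p minus miR-193a-3p became -0.31 under normexp and 0.35 after quantile normalization, and that of miR-193a-3p minus miR-210-3p became 1.16 under normexp; the cause was not tested. The median of the hypoxia list was -1.29 with all probes, -3.60 without scaling and -0.41 after quantile normalization. A threshold of 1.5-fold gave 47 lower miRNAs in place of 27 and 87 higher in place of 65, and the scalings 127 (all probes) and 217 (none), against 27 and 8 higher. Under a rule of any spot, or the flag of the scanner software, miR-193a-5p was also detected on the LLC array and miR-365-3p on the MSC+LLC array, 5 and 4 members. Signal over background limits what can be seen to fall.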

Other observations

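Single spots stood far from their probe in most 3p members. The outlier spots left out read 1633 and 246 for the probes of miR-193b-3p on the LLC array, against means of 909 and 462. For miR-210-3p they read 2049 and 995.6 on the LLC array. For the dimmer probe of miR-365-3p 1 MSC+LLC spot read 59.3 against a median of 10.3, and for its brighter probe 1 LLC spot read 68.7 against a mean of 174. Keeping these spots left the log2 ratios at 0.86 for miR-193b-3p and 0.23 for miR-210-3p.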
